A study of Procotyla fluviatilis with 12 samples.

Results

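Contigs whose level followed body region in both cut and uncut tissue were collected from RNA-seq of the planarian *Procotyla fluviatilis*. A contig was taken when its mean CPM (reads of a contig per 1000000 reads of its library) differed at least 1.5-fold between regions, the same way, in amputated and in uncut tissue. In addition, no Reg+ library was allowed to overlap a Reg- library within either treatment, and the mean over 12 libraries had to reach 1 CPM. Of 149594 contigs in the assembly 41058 reached that level, and 17 met the rule. Of these, 15 were higher in Reg+ and 2 were higher in Reg-. The 17 contigs were thus selected on these CPM values, and every region difference given for them is a description without a test.

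Planarians are flatworms that rebuild missing body parts from stem cells, and their head-to-tail axis is known to be patterned by genes expressed in restricted body regions. Signalling through Wnt and beta-catenin is the best known of these systems, active towards the tail and held down towards the head. A gene that marks a region regardless of injury would keep its regional level whether or not the tissue next to it had been cut. The pharynx, the feeding tube in the middle of the trunk, is the landmark that separates the regions compared here.

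Reg+ is the regeneration-proficient region, cut anterior to the pharynx, and Reg- is the deficient region, cut posterior to it. All worms were adults collected in the field and kept for a short time at 18 °C. Amputated groups were sampled 24 hours after the cut from tissue just behind it, and uncut groups are tissue from the matching site of intact worms. Each of the 4 groups (Reg+ amputated, Reg+ uncut, Reg- amputated, Reg- uncut) was measured in 3 libraries. Each library pooled 3 worms, and no label says whether pools came from separate collections. The 12 libraries held 22038256 to 31266924 reads. The files pair contigs with no gene name and give no sequence, so members are given by identifier and length, and neither the tissue nor any known regional gene could be checked by markers.

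The libraries as labelled did not group by region. Reg+ amputated libraries had a mean Spearman correlation of 0.957 with Reg- uncut libraries and of 0.892 with Reg+ uncut libraries. Reg+ uncut libraries correlated at 0.940 with Reg- amputated libraries and at 0.907 with Reg- uncut libraries. The Reg- amputated group was the least uniform: its replicates 1 and 3 correlated at 0.861 and its other pairs at 0.9387 and 0.9355, against 0.946 or more within each other group. An exchange of labels between whole groups and a true regional pattern cannot be told apart in this design, so every direction below holds as labelled.

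Contigs that kept one regional direction were fewer than the product of the separate shares gives. In amputated tissue 1159 contigs (2.82% of 41058) met the rule with Reg+ higher and 3149 (7.67%) with Reg- higher. In uncut tissue the numbers were 2440 (5.94%) and 1782 (4.34%). If the treatments were independent across contigs, 68.9 contigs would be higher in Reg+ in both. The 15 observed are 0.0365% of the 41058 and 0.218 times that number. For Reg- higher in both, 137 would be expected and 2 were found, which is 0.00487% of contigs and 0.0146 times the expected number. These expected numbers treat contigs as independent, which fragments of one transcript are not, and no test was made of the shortfall.

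**Figure D1:**
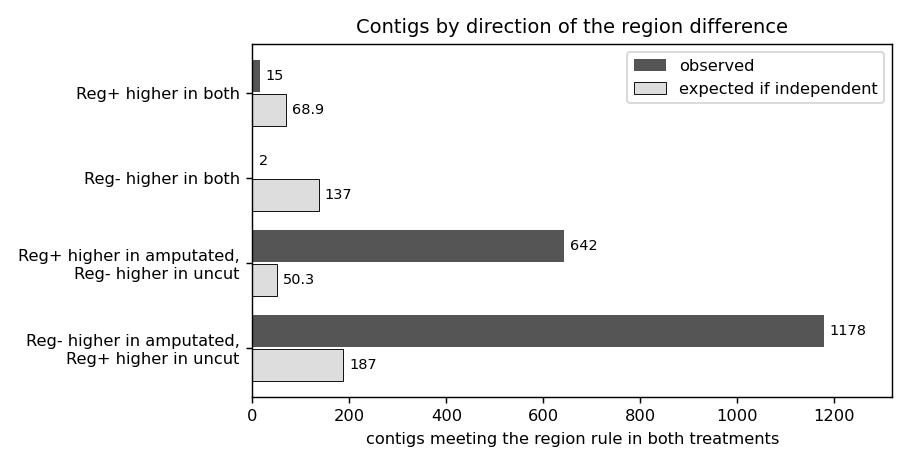
Number of contigs that met the region rule in both treatments (dark bars) and the number expected if the treatments were independent across contigs (light bars), for each combination of directions. The 2 combinations with one direction kept hold 15 and 2 contigs, below 68.9 and 137, and the 2 combinations with the direction turned hold 642 and 1178, above 50.3 and 187.

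The combinations in which the direction turned were above the product of shares. Reg+ was higher in amputated and lower in uncut tissue for 642 contigs (1.56%), where 50.3 would be expected, and lower in amputated and higher in uncut tissue for 1178 contigs (2.87%), where 187 would be expected. Thus 15 of the 1159 contigs higher in Reg+ amputated tissue (1.29%) kept their direction in uncut tissue under the full rule, while 55.4% turned. The uncut Reg+/Reg- ratio of those 1159 contigs had a median of 0.561, and it was above 1 for 113 of them. Among all 41058 contigs the median uncut ratio was 1.03. An exchange of the region labels in one treatment would by construction make the 642 and 1178 contigs the ones with a kept direction, and these 17 the ones that turned.

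**Figure D2:**
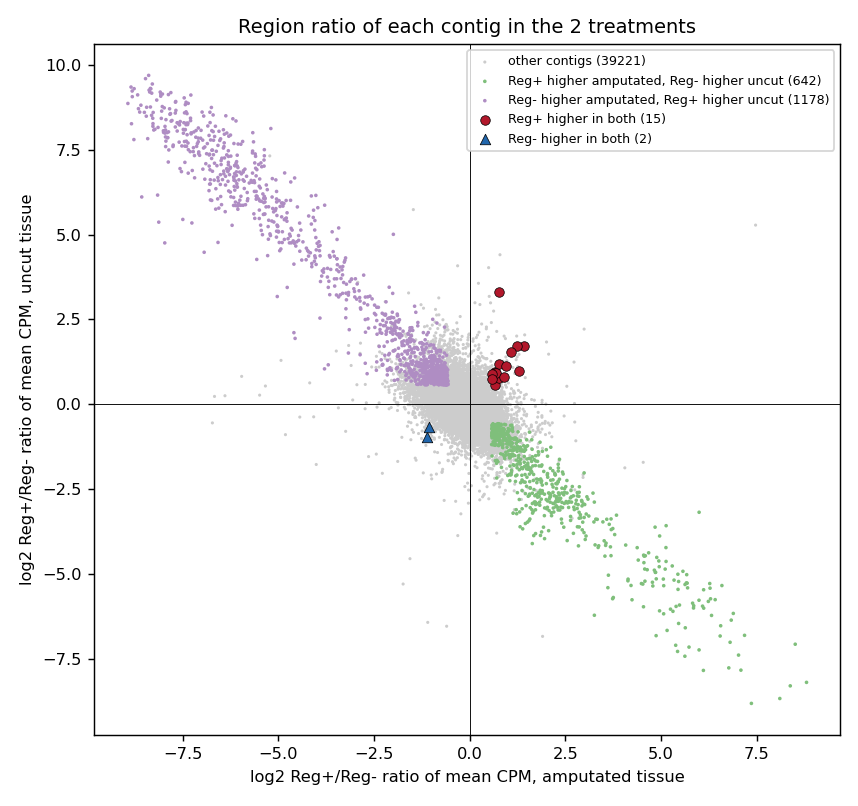
Ratio of mean CPM in Reg+ over Reg- (log2, with 0.05 CPM added to both means) in amputated tissue on the x axis and in uncut tissue on the y axis, 1 point per contig with a mean of at least 1 CPM. Most of the 15 contigs higher in Reg+ in both treatments (red circles) and the 2 higher in Reg- in both (blue triangles) lie close to the centre. An exception is contig16777, with a fold of 10.6 in uncut tissue. The contigs that turned direction (green, 642, and purple, 1178) run along the opposite diagonal, from near the threshold to far out.

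The regional differences of most of the 17 contigs were small. Among the 15 higher in Reg+, the median fold was 1.73 in amputated and 1.95 in uncut tissue, and the weaker of both folds reached 2 in 4 contigs. The median fold, in either direction, was 1.19 over all 41058 contigs in each treatment. In these CPM values the fold was larger in uncut than in amputated tissue for 12 of the 15, of which contig13431 was at 1.717 against 1.716. In the edgeR fit below, with TMM scaling, it was larger in uncut tissue for 11 and in amputated tissue for 4. None of these differences passed there, and no share over all contigs is given. No member was absent from a region, since each had at least 13 reads in every library. In 6 of the 15 all 6 Reg+ libraries, cut and uncut, lay above all 6 Reg- libraries, a condition stricter than the rule. At any fold this held for 32 of the 41058 contigs (0.0779%), and the reverse for 14 (0.0341%). Since the members were already selected for no overlap within a treatment, nothing is read from their share. In bulk tissue a lower level through fewer cells of a type cannot be told apart from less RNA per cell.

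**Figure D3:**
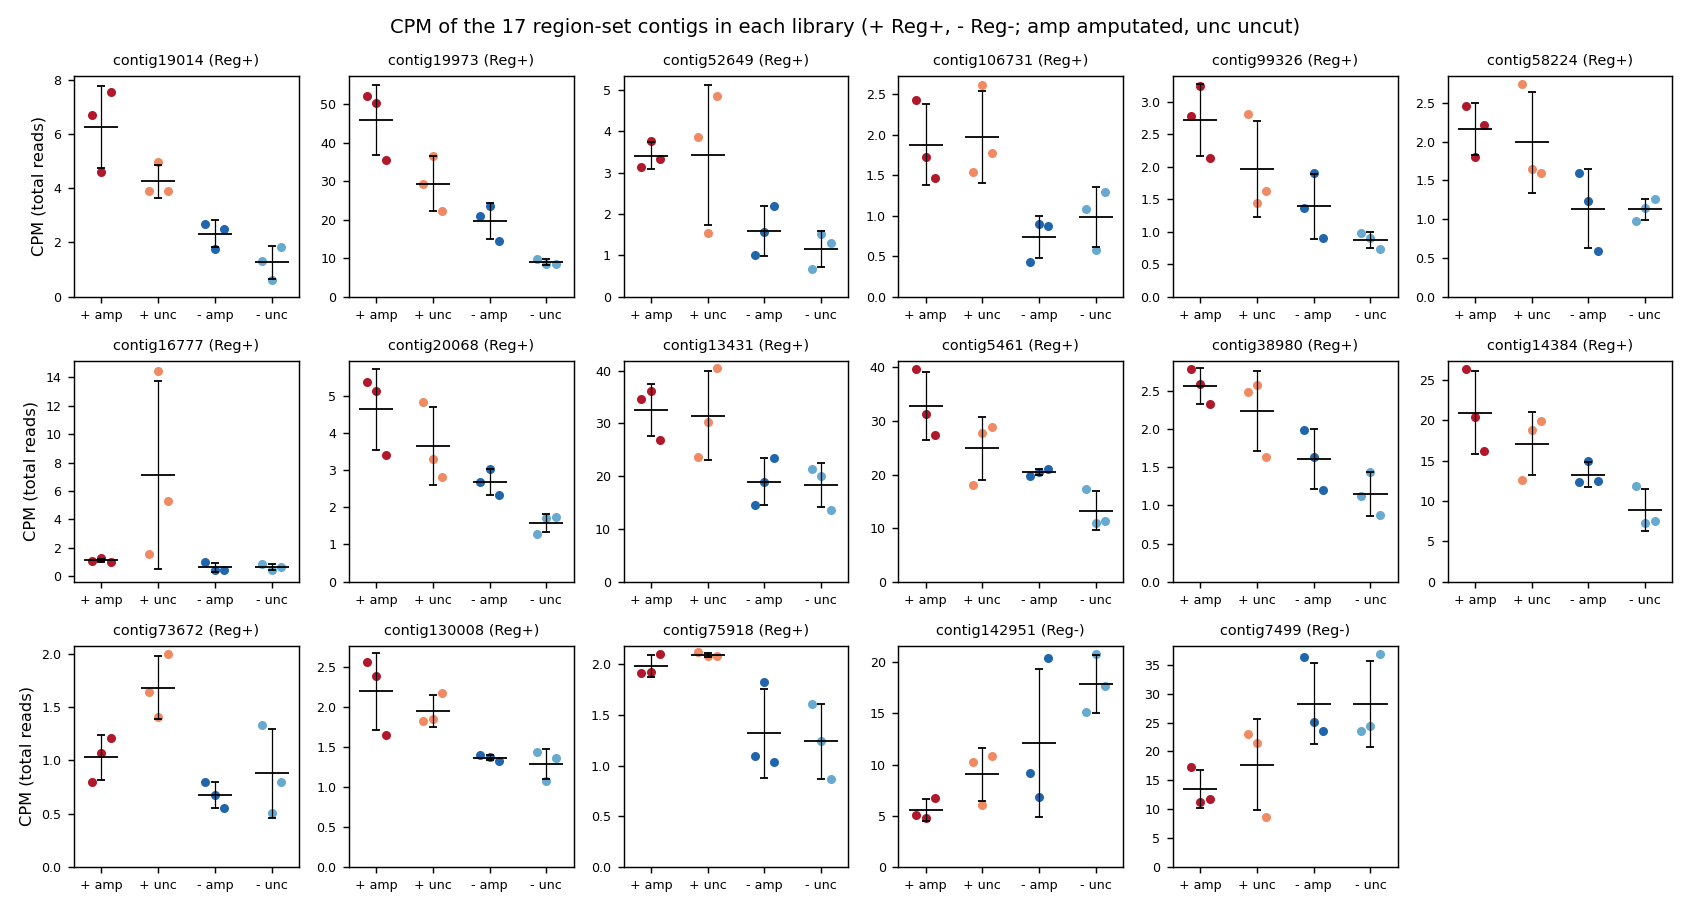
CPM from total reads in each of the 12 libraries (points) for the 17 region-set contigs, with the group mean (line) and SD (bar, n = 3), and the region in which each is higher in its title. Red and orange points (Reg+) lie above the blue points (Reg-) of the same treatment in the first 15 panels and below them in the last 2, and contig16777 has uncut Reg+ libraries at 14.4 and 5.31 CPM, above its other 10 libraries.

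Of the 17, contig19014 (565 nt) had the largest weaker fold. It stood at 6.68, 4.60 and 7.54 CPM in the Reg+ amputated libraries and at 2.69, 1.75 and 2.49 CPM in the Reg- amputated libraries. In uncut tissue it stood at 3.91, 4.96 and 3.90 CPM in Reg+ and at 1.33, 0.604 and 1.85 CPM in Reg-. The lowest Reg+ library of any treatment (3.90 CPM) was above the highest Reg- library (2.69 CPM), and the folds were 2.71 in amputated and 3.38 in uncut tissue. All its reads were counted as uniquely assigned. This is taken here to mean that a read matched no other contig, which the sources used here do not define.

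The most abundant of the 17, contig19973 (591 nt), had the next largest. Its level was 52.1, 50.3 and 35.5 CPM in Reg+ amputated and 20.8, 23.6 and 14.4 CPM in Reg- amputated libraries. In uncut libraries it was 29.4, 36.5 and 22.1 CPM in Reg+ and 9.83, 8.42 and 8.53 CPM in Reg-. Regions did not overlap within a treatment, but the highest Reg- amputated library (23.6 CPM) was above the lowest Reg+ uncut library (22.1 CPM). The folds were 2.34 and 3.29. On the scale corrected for length, the authors' RPKM averaged over 12 libraries, it stood at 43.9, the highest of the 17, against a median of 7.96 RPKM over all 41058 contigs.

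The other 2 members with both folds above 2 were expressed at low levels. The longest member, contig52649 (2060 nt), was at 3.13, 3.78 and 3.32 CPM in Reg+ amputated and 0.996, 1.56 and 2.20 CPM in Reg- amputated libraries, a fold of 2.15. In uncut tissue its Reg+ libraries were uneven, at 3.87, 1.54 and 4.86 CPM, and the lowest of them was only 1.02 times the highest Reg- uncut library (1.51 CPM). In contig106731 (471 nt), the means were 1.87 ± 0.50 and 0.733 ± 0.261 CPM in amputated Reg+ and Reg- tissue (SD, n = 3 each). They were 1.97 ± 0.57 and 0.981 ± 0.370 CPM in uncut tissue. Its 6 Reg+ libraries lay above its 6 Reg- libraries, and 85.0% of its reads were uniquely assigned.

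A further 3 members were abundant, with at least 217 reads in every library. In contig13431 (935 nt) the fold was 1.72 in both treatments. Its levels were 34.6, 36.1 and 26.9 CPM in Reg+ amputated, 14.6, 18.9 and 23.4 in Reg- amputated, 23.7, 30.2 and 40.5 in Reg+ uncut and 21.3, 20.1 and 13.6 in Reg- uncut libraries. No Reg+ library overlapped a Reg- library of either treatment, but the margin was 23.7 against 23.4 CPM. 

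The remaining 2 abundant members, contig5461 (1513 nt) and contig14384 (1642 nt), varied together from library to library. The former was at 39.7, 31.3 and 27.4 CPM in Reg+ amputated and 19.8, 20.4 and 21.0 CPM in Reg- amputated libraries, with folds of 1.61 in amputated and 1.88 in uncut tissue. The latter was at 26.4, 20.4 and 16.1 CPM in Reg+ amputated and 12.3, 15.0 and 12.5 CPM in Reg- amputated libraries, with folds of 1.58 and 1.92. Their CPM ratio stayed between 1.36 and 1.70 over the 12 libraries. The SD of its log2 was 0.09, the smallest of the 136 pairs of members, against a median of 0.73. This pair was singled out after the values were seen, and the files do not say whether both contigs come from one transcript. With TMM scaling, which corrects library sizes for composition, neither met the full rule.

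Most of the other members higher in Reg+ were near the limit of 1 CPM. The 11 members with a mean under 4 CPM ranged down to 1.07 CPM. Short contig99326 (239 nt) averaged 2.72 ± 0.55 CPM in Reg+ and 1.39 ± 0.50 CPM in Reg- after amputation (SD, n = 3 each). Without a cut it averaged 1.96 ± 0.74 and 0.872 ± 0.127 CPM. Only 10.9% of its reads were uniquely assigned, so its level depends on how the counting treated reads that match several contigs, and with uniquely assigned reads it did not meet the rule. In contig58224 (733 nt), the folds were 1.90 and 1.77, and its lowest uncut Reg+ library (1.59 CPM) was 1.27 times the highest uncut Reg- library. Folds of 1.73 and 2.30 were measured in contig20068 (1360 nt), and of 1.59 and 1.95 in contig38980 (243 nt).

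A single contig, contig16777 (790 nt), carried a much larger fold in uncut tissue than any other. It stood at 1.61, 14.4 and 5.31 CPM in Reg+ uncut libraries, against 0.874, 0.470 and 0.662 CPM in Reg- uncut libraries, a fold of 10.6. In amputated tissue the libraries were at 1.09, 1.27 and 1.04 CPM in Reg+ and 0.996, 0.484 and 0.454 CPM in Reg-, a fold of 1.76. Here Reg+ uncut replicates 2 and 3 were above every other library, and the lowest Reg+ amputated library was 1.04 times the highest Reg- amputated library.

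Some members lay just inside the threshold. These were contig75918 (229 nt), whose weaker fold was 1.51 in amputated tissue, and contig130008 (253 nt), whose weaker fold was 1.51 in uncut tissue. In contig73672 (318 nt), at 1.53, the least abundant member, Reg+ amputated replicate 1 (0.800 CPM, 25 reads) was 1.004 times Reg- amputated replicate 1 (0.797 CPM, 24 reads). Outside the threshold there were 98 contigs that met every other condition for Reg+ and 44 that did so for Reg-. The closest were contig149326 (316 nt) with a weaker fold of 1.497 and contig144731 (702 nt) with 1.483, then contig436 (2462 nt) at 1.448 and contig19874 (2622 nt) at 1.447 for Reg-. The line at 1.5 therefore runs through a continuous series of values.

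In the opposite direction, contig142951 (347 nt) was the member with the larger fold. It stood at 9.16, 6.81 and 20.4 CPM in Reg- amputated and 5.05, 4.80 and 6.75 CPM in Reg+ amputated libraries. In uncut tissue it was at 15.1, 20.8 and 17.7 CPM in Reg- and 10.2, 6.07 and 10.8 CPM in Reg+. In amputated tissue the regions were separated by 6.81 against 6.75 CPM, a factor of 1.01, and the fold of 2.19 rested on Reg- amputated replicate 3, without which the contig did not meet the rule. In uncut tissue the fold was 1.98.

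The other, contig7499 (1280 nt), separated all 6 Reg- from all 6 Reg+ libraries by 23.5 against 22.9 CPM. Its Reg- levels were 36.3, 25.1 and 23.5 CPM in amputated and 23.5, 24.3 and 36.8 CPM in uncut libraries. Its Reg+ levels were 17.2, 11.3 and 11.8 CPM in amputated and 22.9, 21.5 and 8.62 CPM in uncut libraries. The folds were 2.10 and 1.60, and 76.0% of its reads were uniquely assigned.

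Length, the level corrected for length and the share of uniquely assigned reads were compared next, of which the rule used only the level, through its minimum. The median length of the 17 was 591 nt against 723 nt over the 41058 contigs, and the median of their mean levels was 7.25 against 7.96 RPKM. The median share of uniquely assigned reads was 99.6%, against 99.7% over all. The coefficient of variation between libraries of one group had a median of 26.0% against 16.3% over all, a quantity that the condition of no overlap acts on. Added up, in the same CPM values that the rule used, the 15 members higher in Reg+ took 162 ± 26 CPM in amputated Reg+ and 87.7 ± 5.7 CPM in amputated Reg- tissue (SD, n = 3 each). In uncut tissue they took 135 ± 20 and 61.6 ± 10.1 CPM. The 4 members above 4 CPM held most of these sums.

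The effect of amputation on these contigs was asked next, because it was not part of the rule. An amputation effect averaged over both regions compares the 6 amputated with the 6 uncut libraries, and its direction is independent of which region is higher. None of the 17 passed an adjusted p of 0.05 (edgeR quasi-likelihood test over 62408 contigs), and neither did any of the 62408 (0% in either direction). Unadjusted p was under 0.05 for 7 of the 15 members higher in Reg+ and 1 of the 2 higher in Reg-, and for 8.53% of all tested contigs. The members had to reach a minimum level and to show no overlap within a treatment, which acts on the spread behind these p-values. Some members also vary together. The 2 shares are thus not alike and nothing is read from them, here or within regions below. DESeq2 called 158 contigs, 0.238% of the 66321 to which it gave an adjusted p, and 1 of them was a member.

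Among the 15 members higher in Reg+, the averaged log2 fold change was above 0 in 12, with a median of 0.27, a range from -1.34 to 0.92, and a lowest adjusted p of 0.371. The median over all tested contigs was 0.00. The largest positive value was in contig19973, at 0.92 ± 0.19 (standard error; edgeR adjusted p 0.371). With DESeq2 its value was 0.93 with an adjusted p of 0.0195, and this was the member it called. Each of the 3 Reg- amputated libraries (14.4 CPM or more) was above each of the 3 Reg- uncut libraries (9.83 CPM or less), while in Reg+ the lowest amputated library (35.5 CPM) was below the highest uncut library (36.5 CPM). Both members higher in Reg- had values below 0, -0.61 in contig142951 and -0.17 in contig7499, and neither passed.

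**Figure D4:**
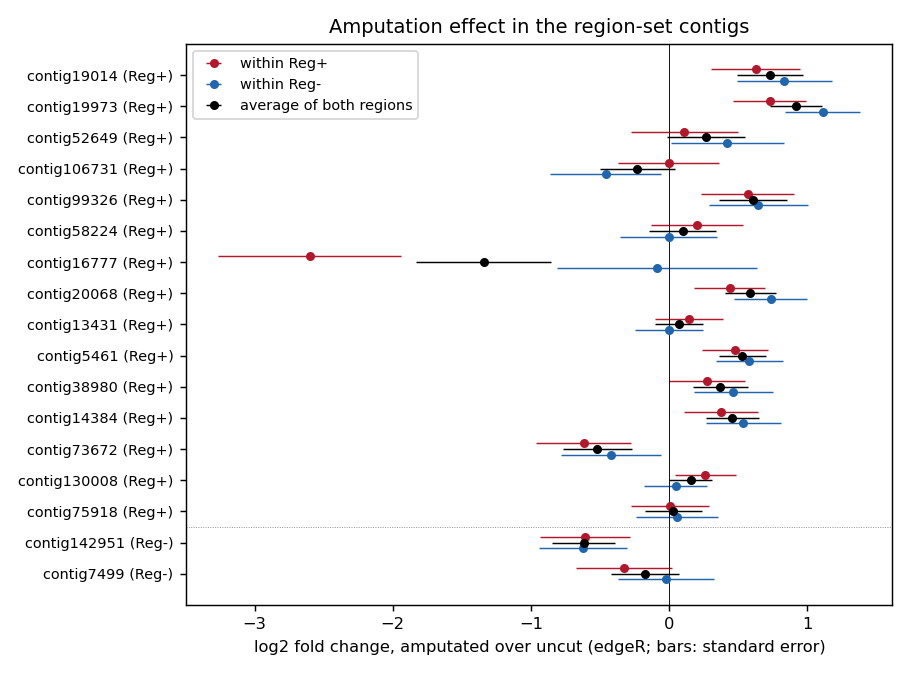
Log2 fold change of amputated over uncut tissue from edgeR with its standard error (bars), within Reg+ (red), within Reg- (blue) and averaged over both (black), for the 15 contigs higher in Reg+ (above the dotted line) and the 2 higher in Reg- (below it). Most averaged values of the upper set lie between 0 and 1, and contig16777 within Reg+, at -2.60, is the single value plotted that passed an adjusted p of 0.05 by edgeR.

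Within regions, 1 member passed the edgeR test. In Reg+ tissue contig16777 fell by 2.60 on the log2 scale after amputation (standard error 0.66, edgeR adjusted p 0.0408), in a comparison where 4.35% of 62408 contigs fell and 2.09% rose. Unadjusted p was under 0.05 for 2 of the 15 members higher in Reg+ and for neither of the others, beside 25.1% of all tested contigs. This contig lies outside the rule for naming by amputation effect. It is given because it was the only call in the main edgeR fit, which has no block for the replicate number. In the 3 Reg+ amputated libraries it was below each of the 3 uncut ones. DESeq2 also called this contig (-2.61, adjusted p 0.00184), as the 1 member among 5760 contigs, 8.69% of the 66321 to which it gave an adjusted p. By edgeR its log2 fold change was -1.46, with an adjusted p of 0.128, without Reg+ uncut replicate 2, the library with 14.4 CPM. It stayed between -2.52 and -2.83, with an adjusted p between 0.0556 and 0.141, without Reg+ amputated replicate 1, 2 or 3, Reg+ uncut replicate 3, Reg- amputated replicate 2 or Reg- uncut replicate 1, 3 or 4. Without any of the other 3 libraries the adjusted p was between 0.00598 and 0.0295.

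In Reg- tissue none of the 17 passed the edgeR test, where 1.62% of contigs rose and 0.995% fell, and 4 of the 15 members higher in Reg+ had an unadjusted p under 0.05, beside 10.4% of all tested contigs. The smallest adjusted p was 0.0607, for a log2 fold change of 1.11 in contig19973, which DESeq2 called (1.12, adjusted p 0.0125) among 2140 contigs, 2.66% of the 80391 to which it gave an adjusted p. Without Reg- amputated replicate 3, 1857 contigs passed by edgeR, beside 1632 in the main fit. Of these 2 were members: contig19973 at 1.37 with an adjusted p of 0.0135, and contig142951 at -1.10 with an adjusted p of 0.0318. Without Reg+ uncut replicate 3, 1668 contigs passed, with contig19973 as the 1 member (1.13, adjusted p 0.0299). Without any other single library no member passed by edgeR, and contig19973 had an adjusted p between 0.0519 and 0.236.

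The 17 contigs were also not called for a difference between the amputation effects of the regions, which equals the difference between the amputated and the uncut region ratio and is limited by the rule itself. The largest such value was -2.52 in contig16777 (adjusted p 0.149 by edgeR, unadjusted 0.0252), and 4634 of 62408 contigs were called (3.01% with the higher response in Reg+ and 4.42% with the higher response in Reg-). DESeq2 also called none of the 17.

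How far the list depends on single libraries was described by leaving each out. A member without overlap among all libraries has none among those left, so it could be lost only through its fold or its mean level. Members with a larger weaker fold are therefore kept more readily. Of the 15 members higher in Reg+, 7 met the rule without any 1 of the 12 libraries, and 6 of these also with TMM scaling, with DESeq2 size factors and with uniquely assigned reads: contig19014, contig19973, contig52649, contig106731, contig16777 and contig20068. The exception was contig99326, lost with uniquely assigned reads. Neither member higher in Reg- met the rule in every such case. For contigs outside the list, no overlap is easier to meet with 1 library fewer. The counts that follow can rise for that reason alone. The number of contigs higher in Reg+ was 28 without Reg+ amputated replicate 3, 26 without Reg+ uncut replicate 1, 27 without Reg- amputated replicate 1, 28 without Reg- amputated replicate 2 and 31 without Reg- uncut replicate 1, beside 13 to 18 without any of the others. Without Reg- amputated replicate 3 it was 17, of which 12 were among the 15, where 355 would be expected from the separate shares. The number higher in Reg- was 2 or 3 without Reg+ amputated replicate 1 or Reg- uncut replicate 4. It was 4 without replicate 2 of either Reg+ group, 14 and 8 without replicate 3 of Reg+ amputated and Reg+ uncut, and 18 without Reg+ uncut replicate 1. It was 11, 5 and 7 without Reg- amputated replicate 1, 2 and 3, and 9 and 6 without Reg- uncut replicate 1 and 3. In the main setting and the 21 alternatives that give an expected number, both counts were below it, at 0.048 to 0.414 times for Reg+ and at most 0.281 times for Reg-.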

How the data were processed

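The authors deposited, per contig of a transcriptome assembled de novo, counts of total and of uniquely assigned reads, and RPKM, per the file headers. The deposited RPKM equal total reads scaled by contig length and column sum, to within 0.0078 RPKM. Per the labels' protocols these were TruSeq libraries run on an Illumina HiSeq. How reads were aligned, and how those matching several contigs were counted, is not given in the sources used here. CPM were total reads over the column sum. Replicate pairs differed by a chi-square per degree of freedom of 9.68 to 73.1, so no library was a copy of another.

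Amputation effects were fitted with edgeR 4.0.16 (R 4.3.3; quasi-likelihood, 1 mean per group, TMM factors 0.907 to 1.09, 62408 contigs kept by filterByExpr holding 99.19% to 99.57% of reads, Benjamini-Hochberg, called at adjusted p under 0.05, two-sided). The standard error is the log2 fold change over the square root of F. DESeq2 1.42.0 was an alternative. Both scripts were tested on simulated data. The simulation of the rule used larger folds, higher levels and less spread than most members had, so it does not show how the rule works at their level. P-values measure only the spread between these pools.

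The members, the tests and the naming rule were chosen with earlier results of these data known. Per direction the rule named the 6 largest weaker folds, the 3 most abundant, the 2 nearest the threshold inside and outside, the 2 longest, and any called for the averaged amputation effect (none by edgeR). Contig16777, contig20068, contig38980 and contig73672 are named outside it, after their values were seen.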

Additional observations from a re-analysis of the deposited data

Results flagged for a closer look

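The effect of amputation, as labelled, differed between regions over the whole assembly: a test of the difference itself called 4634 contigs (edgeR, adjusted p under 0.05), and none of the 17 region-set contigs was among them. The rule itself limits this difference in the 17, so nothing is read from their absence. Groups of 3 libraries are too small to look for a single outlying library by its gap to the others.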

How the results depend on the processing

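Other settings of the rule, for Reg+ and Reg- in turn, gave 46 and 14 contigs with a fold threshold lower by 0.25, 4 and 0 with one of 2, 23 and 5 with a minimum of 0.5 CPM, 4 and 2 with 5 CPM, 103 and 120 with no minimum, and 69 and 117 when libraries were allowed to overlap. Requiring no overlap across treatments gave 6 and 1. Uniquely assigned reads (11 and 2), TMM scaling (14 and 3) and DESeq2 size factors (14 and 3) stayed within 1.5 times, and of the 15 they kept 11, 12 and 11. Without 1 library, where no overlap is easier to meet, the counts ran from 13 to 31 and from 2 to 18. The weaker fold of the 17 ran from 1.27 to 3.08 over 238 recomputations, and 22 of these lay below 1.5. Each lay within 1 SD of its value as reported, but that SD is the spread between libraries. Leaving out 1 library of 3 can hardly move a mean that far, so nothing is read from this. For the amputation effect averaged over both regions, DESeq2 called 158 contigs with 1 member, edgeR without a filter on low counts 1 contig with no member, and leaving out 1 library 0. Leaving out 1 library gave 1747 to 7699 calls within Reg+ (0 to 1 members), 1133 to 1857 within Reg- (0 to 2 members) and 2905 to 12429 for the difference between regions (0 to 1 members). DESeq2 called 5760 contigs with 1 member within Reg+, and 2140 contigs with 1 member within Reg-.

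Same-numbered libraries deviated together (correlation over 0.1) in 8 of 15 pairs, from -0.096 to 0.577, and 7 of 12 libraries were closest to their own number. Reg- uncut replicate 4 has no same-numbered library in another group and could not be among the 7. No number expected by chance is given. These values do not decide whether the numbers pair the samples, and no label says that a number marks a shared batch. The main fit has no block, and this choice changes which member is called within a region. With the replicate number as a block, 0 contigs were called for the averaged effect, 4889 within Reg+, 1327 within Reg- and 4787 for the difference. Since Reg- uncut replicate 4 shares its number with no other library, the block fits it exactly. It then adds nothing to these contrasts, so the blocked fit also differs from the main one by leaving this library out. Under the block contig16777 (-2.35, adjusted p 0.0666 by edgeR) was not called within Reg+. There contig19973 was called, at 0.75 (adjusted p 0.00744), and also within Reg-, at 0.86 (adjusted p 0.0124), as the 1 member in each. The causes were not tested. The low counts of most members limit how finely their regions can be separated.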

Other observations

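Where a left-out library fell, for the contigs chosen without it, is described here for some of the libraries. Of the 28 contigs that met the rule for Reg+ without Reg+ amputated replicate 3, that library lay above every Reg- amputated library in 15. For Reg- uncut replicate 1 it was 15 of 31 contigs below every Reg+ uncut library, and for Reg- amputated replicate 2 it was 18 of 28 below every Reg+ amputated library. For Reg- higher contigs, Reg+ uncut replicate 1 lay below every Reg- uncut library in 3 of 18, and Reg+ amputated replicate 3 below every Reg- amputated library in 2 of 14. For Reg+ higher contigs chosen without Reg+ amputated replicate 1 it was 13 of 14, and without Reg+ uncut replicate 2 it was 15 of 17. By the rule itself the members among these contigs lie on that side, and they make up most of the contigs counted there. No share expected by chance is given and no test was made, so the counts lend no support to the list.

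Within groups, 1 library often gave the lowest or highest level of the 15 members higher in Reg+. Reg+ amputated replicate 3 was the lowest of its group in 10 of 15 and Reg- amputated replicate 3 in 9 of 15, while Reg- uncut replicate 1 was the highest of its group in 9 of 15. The share over all contigs is not given here, and the members were selected on these same values. A trait of the members and one of the whole library therefore cannot be told apart.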
